A study of Mus musculus with 12 samples.

Results

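Transcripts of 9 myelin genes, Mbp, Mobp, Mog, Mag, Opalin, Mal, Cldn11, Cnp and Ermn, were followed through 12 mouse brain RNA-seq libraries. The genes were chosen by name as components of the myelin sheath, with earlier results of these data known. Counts of members called are therefore descriptions and not independent of the data. The genes were matched by Ensembl identifier among the 41388 genes of each count file. All 9 were found and all 9 passed the filter on low counts in every fit. The libraries held either astrocytes, pulled out of dissociated brain with magnetic beads against the surface antigen ACSA-2, which is encoded by Atp1b2, or the flowthrough, which is every cell the beads did not hold. The astrocyte fraction came from 5 Bmal1 astrocyte knockout animals (aKO, Cre+, numbers 203, 205, 208, 221 and 222). It also came from 3 animals titled wild type (WT, Cre-, numbers 201, 202 and 265), though the astrocyte library of 202 carries a Cre+ genotype field. Flowthrough came from aKO 203 and 205 and from WT 201 and 202, so 4 brains gave both fractions. Every animal was of the strain Bmal fl/fl; ALDH1L1-CreERT2 on a C57BL/6 background, in which Cre sits under the promoter of an astrocyte gene and acts only after tamoxifen. Going by the titles, the WT animals lack Cre but carry the floxed Bmal1 gene (official symbol Arntl). Tamoxifen went to both genotypes when they were 2 months old (2 mg daily on 5 days), and the mice were 7 months old at dissection. Replicates are different animals, going by the number in each title.

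In the central nervous system myelin is made by oligodendrocytes, which wrap their membrane around axons in many compacted layers. Myelin basic protein (Mbp) and the small basic protein encoded by Mobp hold the cytoplasmic faces of those layers together, and in rodents the mRNAs of both genes are carried out of the cell body into the processes and the sheath. Mog, Mag and Opalin encode membrane glycoproteins, on the outer face of the sheath (Mog), on the membrane next to the axon (Mag) and in oligodendrocyte processes (Opalin). Cldn11 forms the tight junctions between the layers, Mal is a proteolipid of lipid-rich membrane, Cnp encodes an enzyme of the cytoplasmic channels of myelin, and Ermn encodes an actin-binding protein of mature oligodendrocytes. In bulk libraries of this kind, fewer cells of a type and less RNA per cell cannot be told apart.

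By the coordinates in the deposited files (GRCm38), Mog lies on the minus strand at chr17:37010743-37023398 and Mag on the minus strand at chr7:30899176-30914873. Opalin is at chr19:41062474-41077113 (minus), Mal at chr2:127633226-127656695 (minus) and Ermn at chr2:58045113-58052864 (minus). Cldn11 is at chr3:31149946-31164324 (plus), Mobp at chr9:120149742-120181484 (plus) and Cnp at chr11:100574904-100591729 (plus). Summed exon length runs between 1704 bases for Mog and 8403 bases for Mbp. Exons of 3 of the genes overlap those of a neighbour. Cnp shares 154 exon bases with Dnajc7 on the opposite strand (34.2 to 158 CPM across the libraries), Ermn shares 237 with Galnt5 on the opposite strand (at most 0.397 CPM), and Mobp shares 79 with the noncoding Gm38642. CPM is the read count scaled to the library's total count. With no stated strand setting, the reads of Cnp and Dnajc7 cannot be told apart where the exons overlap.

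The stretches in front of the genes' start sites were read for letters that transcription regulators, among them those of oligodendrocytes, are known to bind. Any part of these letters in the levels was not tested. A window of 250 bases before to 50 after the annotated start was taken for 8 of the members from RefSeq (GRCm38.p6). The letters searched on both strands were ACAAAG and ACAATG, which SOX factors such as SOX10 bind, CTGGCAC and CTGGTAC, which the myelin regulator MYRF binds, the E-box CACGTG, which BMAL1 with CLOCK binds, and the TATA box TATAAA. The 150 bases just before the start are printed for 4 genes that hold SOX or MYRF letters there, with those letters in capitals (CTTTGT is ACAAAG on the opposite strand, GTACCAG is CTGGTAC on the opposite strand). They lie at chr7:30914923-30915072 (Mag, the most upstream of 3 annotated starts), chr19:41077114-41077263 (Opalin), chr17:37023399-37023548 (Mog) and chr9:120149592-120149741 (Mobp), each read on the gene's own strand.
Mag: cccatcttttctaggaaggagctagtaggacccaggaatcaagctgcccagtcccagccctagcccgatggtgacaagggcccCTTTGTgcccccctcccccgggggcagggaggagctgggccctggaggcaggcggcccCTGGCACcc
Opalin: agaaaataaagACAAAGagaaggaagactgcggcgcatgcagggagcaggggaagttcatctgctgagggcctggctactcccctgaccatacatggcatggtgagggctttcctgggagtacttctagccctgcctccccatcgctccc
Mog: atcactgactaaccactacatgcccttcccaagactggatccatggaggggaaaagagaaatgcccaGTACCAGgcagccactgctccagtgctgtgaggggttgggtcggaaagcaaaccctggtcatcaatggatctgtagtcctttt
Mobp: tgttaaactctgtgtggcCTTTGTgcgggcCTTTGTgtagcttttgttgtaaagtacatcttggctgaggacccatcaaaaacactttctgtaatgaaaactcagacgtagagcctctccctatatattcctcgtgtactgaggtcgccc

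ACAAAG was present in the windows of 4 of the 8 members (Cnp, Mag, Mobp and Opalin), against 21.0% of the 27025 genes with a window. CTGGCAC was present in 3 (Cnp, Mag and Opalin), against 5.73% of genes, and CTGGTAC in Mog alone, against 2.60%. In Mag the MYRF letters begin 9 bases before the start and the SOX letters 67 bases before it. In Cnp CTGGCAC begins 81 bases and ACAAAG 167 bases before the start. The CTGGCAC of Opalin lies 36 to 42 bases after the start and so outside the printed stretch, and Mobp holds ACAAAG 6 times between 243 and 115 bases before its start. ACAATG occurred in Ermn alone (14.3% of genes). CACGTG (8.09% of genes) and TATAAA (15.7%) occurred in none of the 8 windows, and the windows of Mal and Cldn11 held none of the 6 motifs. A match is a description of letters, not of a bound site.

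The libraries held between 21816637 and 62655238 counts in the astrocyte fraction and between 33019572 and 53868165 in flowthrough, and no member had fewer than 641 counts in any library. The summed share of 10 astrocyte markers was 0.287 to 1.42% of counts in the astrocyte fraction and 0.0198 to 0.494% in flowthrough, and that of 8 microglial markers was 0.0144 to 0.0466% in the astrocyte fraction and 0.393 to 0.590% in flowthrough. Atp1b2, the bead target, was 257 to 1000 CPM in the astrocyte fraction and 34.05 to 130 CPM in flowthrough. Arntl, the targeted gene, was at 5.05 to 25.0 CPM in aKO astrocytes and 2.13 to 6.80 CPM in WT astrocytes; these counts cover the whole gene and do not check the deletion. The astrocyte library of animal 202 is titled wild type but carries a Cre+ genotype field. It is called WT 202 here after its title, and results are also given without it. The titles of the 4 flowthrough libraries end in an unexplained b, and whatever this marks cannot be told apart from the fraction.

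All 9 myelin genes had higher estimates in the bead-isolated astrocyte fraction than in the flowthrough, by 2.68-fold (Mag) to 3.94-fold (Cldn11), and 7 of the 9 passed the test. The 7 that rose were Cldn11, Mal, Ermn, Mog, Mag, Opalin and Cnp, while Mbp and Mobp, at 3.39-fold and 3.81-fold, did not pass. Over all 20637 genes tested, 17.0% were called in this comparison and 8.52% were called higher. The median log2 fold change of the 9 genes was 1.65, beside 0.07 for all genes tested. Together their transcripts made up 0.229 to 1.52% of counts in the 8 astrocyte libraries and 0.0657 to 0.540% in the 4 flowthrough libraries. The test was edgeR's quasi-likelihood test over 4 groups (fraction by genotype) and all 12 libraries, with Benjamini-Hochberg adjustment at 0.05.

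**Figure D1:**
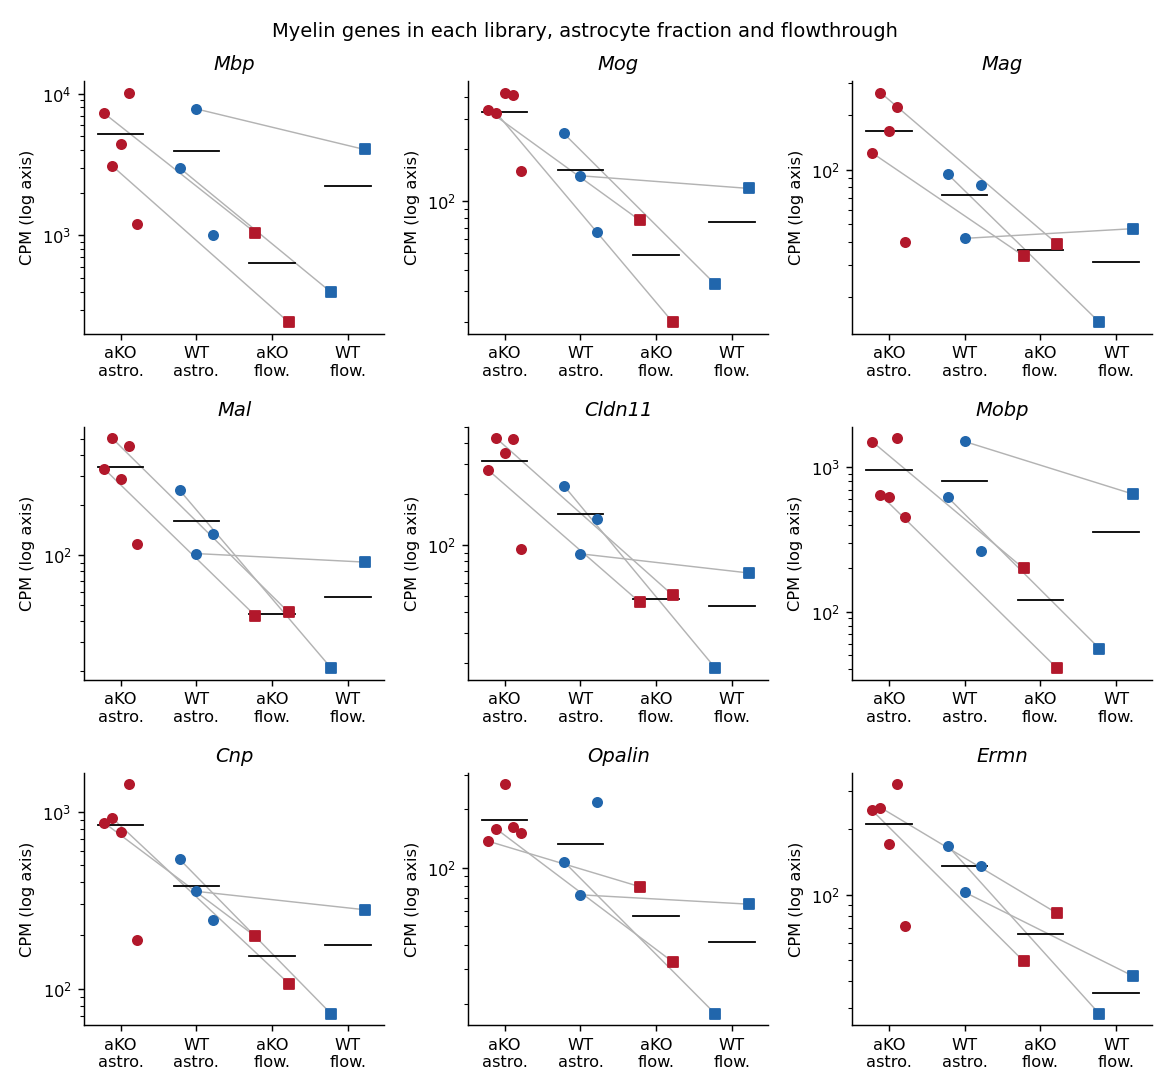
Level of each myelin gene in every library, in CPM on a log axis; circles are astrocyte-fraction libraries and squares flowthrough, red is aKO and blue WT, bars are group means, and grey lines join the fractions of 1 brain. Mal and Cldn11 are the genes whose lowest astrocyte library (102 and 88.8 CPM) lies above their highest flowthrough library (90.6 and 68.4 CPM).

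The junction and raft genes separated the fractions most cleanly. Mal was at 333, 508, 290, 459 and 117 CPM in the aKO astrocyte libraries 203, 205, 208, 221 and 222 and at 246, 102 and 134 CPM in WT astrocytes 201, 202 and 265, against 42.9 and 45.004 CPM in the flowthrough of aKO 203 and 205 and 20.7 and 90.6 CPM in that of WT 201 and 202. Cldn11 was at 279, 429, 349, 427 and 94.6 CPM in the same aKO astrocytes and at 225, 88.8 and 142 CPM in WT astrocytes, against 46.0 and 50.4 CPM in aKO flowthrough and 18.7 and 68.4 CPM in WT flowthrough. For these 2 genes all 8 astrocyte libraries lay above all 4 flowthrough libraries, which was so for 10.9% of genes in either direction. The lowest astrocyte value and the highest flowthrough value of both genes came from the same brain, WT 202. The log2 fold change was 1.98 for Cldn11 (SE 0.44, edgeR adjusted p = 0.00570) and 1.96 for Mal (SE 0.44, adjusted p = 0.00599).

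Among the surface glycoproteins, Mog averaged 263 ± 134 CPM in the astrocyte fraction (SD, n = 8) and 62.3 ± 45.02 CPM in flowthrough (SD, n = 4). Its flowthrough values were 77.7 and 19.8 CPM in aKO 203 and 205 and 33.0 and 119 CPM in WT 201 and 202, and 7 of the 8 astrocyte libraries lay above the highest of them. The exception was WT 265 astrocytes at 66.1 CPM. Mag averaged 130 ± 82.9 CPM in the astrocyte fraction (SD, n = 8) and 33.6 CPM in flowthrough, with flowthrough values of 33.5 and 39.1 CPM in aKO 203 and 205 and 14.4 and 47.4 CPM in WT 201 and 202. The astrocytes of aKO 222 at 40.1 CPM and WT 202 at 41.9 CPM fell within that range. Opalin averaged 159 ± 61.1 CPM in the astrocyte fraction and 48.8 ± 28.5 CPM in flowthrough, where its highest value was 79.8 CPM in aKO 203. The edgeR log2 fold changes were 1.65 for Mog (SE 0.48, adjusted p = 0.0264), 1.42 for Mag (SE 0.43, adjusted p = 0.0327) and 1.48 for Opalin (SE 0.45, adjusted p = 0.0331).

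Of the genes for cytoplasmic proteins, Cnp averaged 667 ± 421 CPM in the astrocyte fraction and 164 ± 93.7 CPM in flowthrough, and its log2 fold change was 1.54 (SE 0.49, edgeR adjusted p = 0.0405). Ermn averaged 183 ± 83.8 CPM in the astrocyte fraction and 50.5 ± 22.8 CPM in flowthrough, with a log2 fold change of 1.53 (SE 0.38, adjusted p = 0.0111). The single astrocyte library within the flowthrough range of Ermn was aKO 222, at 71.8 CPM against a highest flowthrough value of 82.0 CPM in aKO 205. For Cnp, aKO 222 (189 CPM) and WT 265 (244 CPM) lay within that range, whose top was 280 CPM in WT 202.

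The genes of the basic proteins, Mbp and Mobp, spread most in the flowthrough, where the highest library was 16.57 and 15.97 times the lowest (2.90 to 5.98 times for the other 7 genes). In the astrocyte fraction Mbp spread most as well (10.2 times), while Mobp (5.98 times) spread less than Cnp (7.62), Mag (6.67) and Mog (6.47). Mbp was at 7286, 3091, 4395, 10185 and 1200 CPM in aKO astrocytes 203, 205, 208, 221 and 222 and at 2991, 7802 and 1003 CPM in WT astrocytes 201, 202 and 265, against 1043 and 244 CPM in the flowthrough of aKO 203 and 205 and 397 and 4037 CPM in that of WT 201 and 202. Mobp was at 1503, 644, 627, 1582 and 449 CPM in the same aKO astrocytes and 618, 1505 and 265 CPM in WT astrocytes, against 199 and 40.9 CPM in aKO flowthrough and 55.8 and 652 CPM in WT flowthrough. The flowthrough of WT 202 exceeded 4 of the 8 astrocyte libraries for Mbp and 5 of 8 for Mobp, while the other flowthrough libraries lay below all astrocyte libraries for Mobp. The log2 fold changes were 1.76 for Mbp (SE 0.74, edgeR adjusted p = 0.112) and 1.93 for Mobp (SE 0.69, adjusted p = 0.0638).

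The fractions of 1 brain can be set side by side in 4 animals. In 35 of the 36 such pairs of values (9 genes in 4 brains) the astrocyte fraction was the higher. The ratios ranged between 1.71 and 7.77 in aKO 203, between 3.06 and 16.4 in aKO 205, between 5.92 and 12.0 in WT 201 and between 0.884 and 2.43 in WT 202. The single ratio below 1 was Mag in WT 202 (41.9 CPM in astrocytes, 47.4 CPM in flowthrough), and the highest was Mog in aKO 205 (325 CPM in astrocytes, 19.8 CPM in flowthrough). Opalin had the lowest ratio of the 9 genes in aKO 203 (1.71), and Ermn the lowest in aKO 205 (3.06) and in WT 201 (5.92). In WT 202 Ermn had the highest (2.43). These ratios use CPM by library totals, without the TMM scaling factors of the edgeR fits. Those factors were 0.905 and 1.05 in the astrocytes and flowthrough of WT 202, and 1.43 and 0.754 in those of aKO 205. Applied, they would raise the ratios of WT 202 and lower those of the other 3 animals. The ratio below 1 and the order of the animals are therefore given for CPM only. The fractions of animal 202 were also closer to each other than those of the other 3 brains in some markers and not in others. The astrocyte marker share in its astrocytes was 2.87 times that in its flowthrough, against 9.34, 43.1 and 21.2 times in aKO 203, aKO 205 and WT 201, and Atp1b2 was 2.76 times, against 6.42 to 14.5 times. The neuronal marker share was 2.57 times, against 5.87 to 8.18 times. Microglial markers were further apart in animal 202, at 0.0353 times, against 0.0783 to 0.0858 times in the other 3 brains. For choroid plexus markers animal 202 (0.147 times) stood beside aKO 203 (0.149 times), with aKO 205 at 0.297 and WT 201 at 0.501 times. For leukocyte markers (0.0506 times) and the mitochondrial share (2.54 times) animal 202 lay within the range of the others. The part of these differences in the myelin gene values was not tested.

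**Figure D2:**
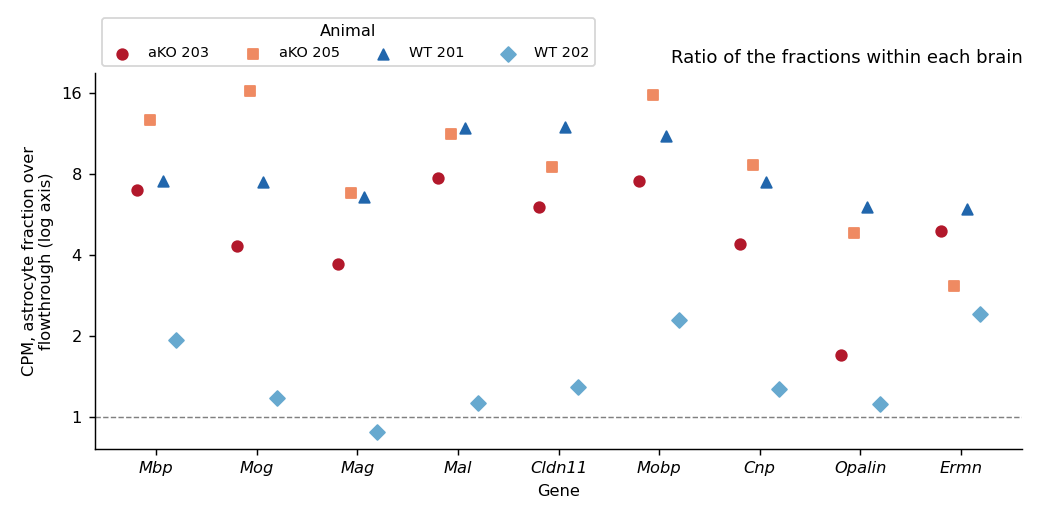
CPM in the astrocyte fraction divided by CPM in the flowthrough of the same brain, on a log axis, for the 9 genes in 4 animals; the dashed line marks equal levels. By CPM, without TMM scaling, WT 202 (0.884 to 2.43) lies below the other 3 animals for all 9 genes.

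With the animal as a block in the 8 libraries of these 4 brains, 8 of the 9 genes were called by edgeR (29.5% of 20189 genes tested). Mbp then had a log2 fold change of 2.24 (SE 0.43, adjusted p = 0.00402) and Mobp of 2.55 (SE 0.44, adjusted p = 0.00222), both past the threshold, and Opalin of 1.11 (SE 0.40, adjusted p = 0.0617), not past it. Without animal 202 in either fraction, 8 genes were called (14.9% of all) and Mbp was not (2.33, SE 0.80, adjusted p = 0.0598). The number called depended on single libraries. It was 9 without the flowthrough of WT 202 (18.5% of all genes) and 4 without the astrocytes of WT 201 (15.2%). It was 3 without the flowthrough of aKO 205 (Mal, Cldn11 and Ermn, with 9.59% of all genes). Without the flowthrough of WT 201 it was 1 (7.61% of all genes), Mal at 1.64 (edgeR adjusted p = 0.0492), with Cldn11 at 1.68 (adjusted p = 0.0501). Across the 21 alternatives fitted all 9 estimates kept their sign, and Mal was called in 21, Cldn11 in 20, Ermn in 19, Mog in 18, Opalin in 16, Mag in 14, Cnp in 11, Mobp in 9 and Mbp in 5.

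**Figure D3:**
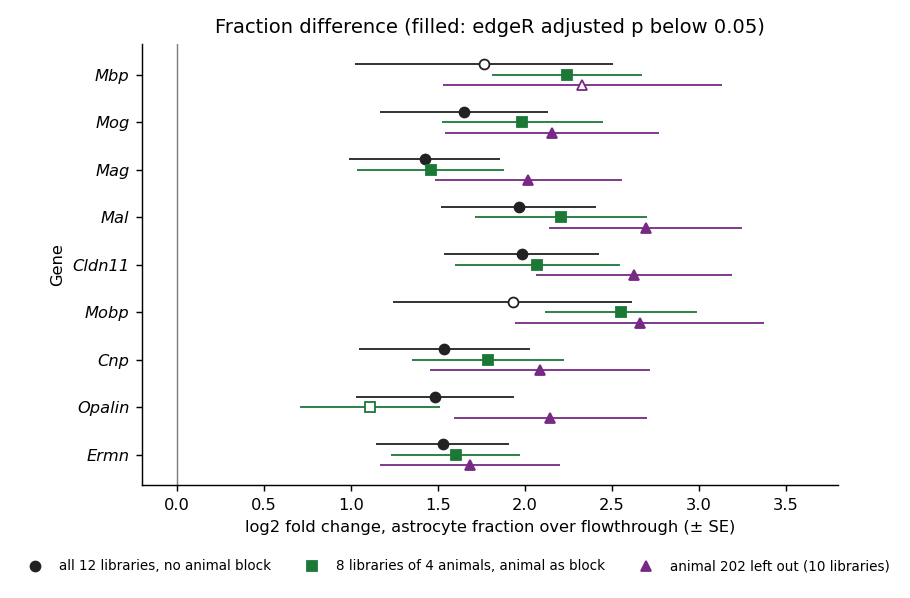
Log2 fold change of each myelin gene, astrocyte fraction over flowthrough, with its standard error, from edgeR in all 12 libraries (black circles), in the 8 libraries of 4 animals with the animal as a block (green squares) and without animal 202 (purple triangles); filled symbols have an adjusted p below 0.05. All estimates lie above 0, between 1.11 (Opalin with the block) and 2.69 (Mal without animal 202).

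Other genes of the oligodendrocyte lineage were described as lists, by counts and medians, with no test of a list. Of 40 other genes of mature oligodendrocytes 21 were called higher and 0 lower (median log2 fold change 1.33). They included Omg, a glycoprotein of oligodendrocytes and neurons (3.59, SE 0.63, edgeR adjusted p = 9.2e-04), the tetraspanin gene Tspan2 (2.13, SE 0.43, adjusted p = 0.00252) and the orphan receptor gene Gpr37 (2.39, SE 0.51, adjusted p = 0.00421). The 4 genes of this list with estimates below 0 were Evi2a (-1.01, SE 0.36, adjusted p = 0.0654), Enpp2 (-0.49), Ppp1r14a (-0.13) and Tppp3 (-0.0079), and 0 of them passed. Of 15 transcription factors of the lineage 7 were called higher and 0 lower (median 1.24), among them St18 (2.64), Sox8 (2.44), Nkx2-2 (2.55) and Olig1 (1.76). Of 21 genes of myelin lipid synthesis 7 were called higher and 1 lower (median 0.78), with Ugt8a, which makes galactosylceramide, at 1.63 and Aspa, which supplies acetate from N-acetylaspartate, at 1.68. The gene called lower was Sgpl1, the sphingosine phosphate lyase (-1.31, SE 0.31, adjusted p = 0.00751).

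Markers of earlier stages were described in the same way. Of 13 genes of newly formed oligodendrocytes that were tested, 8 had estimates above 0 and 5 below. Among them 1 was called higher (Fyn, 1.18) and 2 lower (Frmd4a, -1.501, and Itpr2, -0.90), with a median of 0.10. All 8 precursor markers had estimates above 0, and 2 were called higher (median 0.98): Ptprz1 (3.16), which astrocytes also express, and Vcan (1.16). Of 15 genes of the node and paranode, where myelin meets the axon, 11 were called higher (median 1.69), with the axonal Kcna1 at 1.70 and the adhesion gene Cntn2 at 1.91. Neuronal markers moved the same way, 4 of 8 called higher (median 1.94), at 0.0388 to 0.172% of counts in the astrocyte fraction and 0.00598 to 0.0659% in flowthrough. Of 7 genes of peripheral myelin tested, 2 had estimates above 0 and 5 below (median -0.12). The 2 above 0, Cdh19 (2.96) and Drp2 (2.03), were called higher, and Egr2 (-1.14) was called lower.

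The markers of other cell types were described in the same way. Astrocyte markers were called higher in 9 of 10 cases (median 2.48), and microglial and leukocyte markers lower in 8 of 8 cases each (medians -4.24 and -4.06). Of 8 endothelial, 8 choroid plexus and 8 ependymal markers 0 were called by edgeR, with medians of 0.12, -0.69 and -1.12 and 0, 2 and 4 markers at an unadjusted p below 0.05. Over all 20637 genes tested, 6602 (32%) had an unadjusted edgeR p below 0.05. All 8 choroid plexus and all 8 ependymal markers had estimates below 0, as did 4 of the 8 endothelial markers.

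Compared per summed exon length (RPKM, the read count scaled to that length and to the library total), the make-up of the 9 messages differed from library to library. The length counts every annotated exon of a gene (8403 bases for Mbp), not 1 transcript. A share of the summed RPKM is therefore not a share of molecules. Mbp had the largest median share, at 32.7% of their summed RPKM in the astrocyte fraction (range 21.0 to 61.7%, n = 8) and 34.9% in flowthrough (17.1 to 56.1%, n = 4). Mag had the smallest median share, at 2.08% in the astrocyte fraction and 2.47% in flowthrough. In between, the medians in the astrocyte fraction were 12.6% for Cnp, 11.2% for Mog, 10.2% for Cldn11, 8.89% for Mobp, 7.01% for Mal, 5.47% for Opalin and 3.47% for Ermn. The ranges of neighbours in that order overlapped, Cnp running between 6.50 and 16.4% and Mog between 5.49 and 15.8%. Set side by side within a library, 16 of the 36 pairs of genes stood in the same order in all 12 libraries. Cnp exceeded Mal in all 12 (1.24 to 3.52 times), as Cldn11 did (1.14 to 1.81 times), and Mag lay below Cnp, Mog, Cldn11, Mal and Opalin in each. Mbp exceeded every other member in all 12 libraries except Cnp, which it exceeded in 11. The neighbours from Cnp down to Opalin changed places between libraries: Cnp exceeded Mog in 10 of 12, Mog exceeded Cldn11 in 9, Cldn11 exceeded Mobp in 6, Mobp exceeded Mal in 8 and Mal exceeded Opalin in 4.

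**Figure D4:**
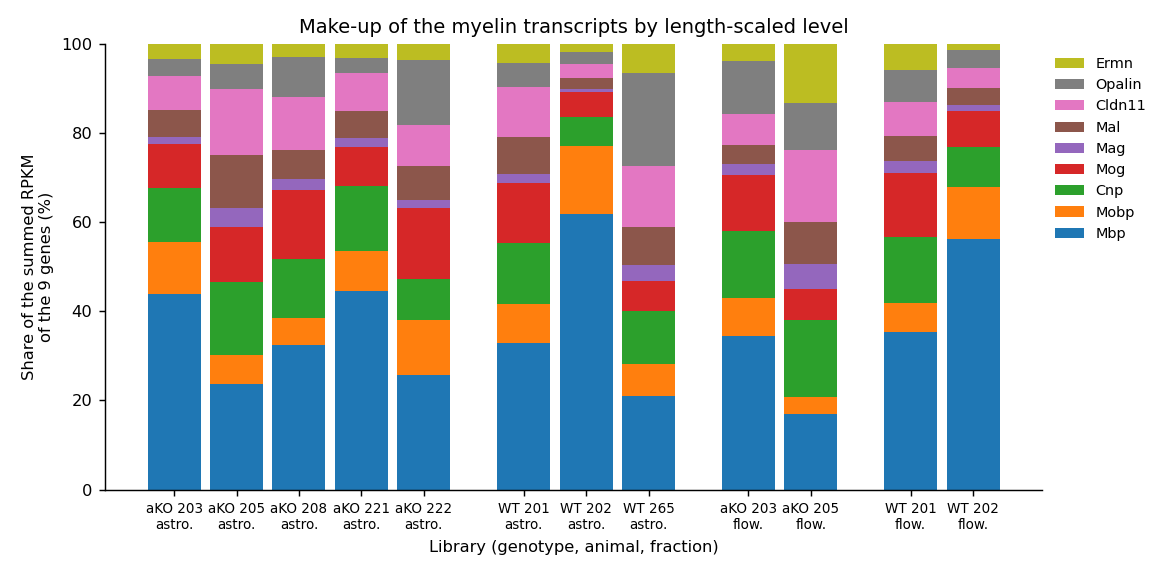
Share of each myelin gene in the summed RPKM of the 9 genes, in percent, in every library; aKO libraries stand left of WT within each fraction. Mbp takes 61.7% of the sum in the astrocytes and 56.1% in the flowthrough of WT 202, and Opalin takes 20.9% in WT 265 astrocytes.

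The main departure was animal 202. The ratio of Mbp to Mog by RPKM was 11.3 in its astrocytes and 6.90 in its flowthrough, so both fractions of this brain stood above the other 10 libraries. Next came aKO 221 astrocytes (5.00) and aKO 203 astrocytes (4.39), and the other 8 libraries lay between 1.62 and 3.08. Mobp went with Mbp: Mobp over Mog was 2.81 and 1.44 in the astrocytes and flowthrough of WT 202, and 0.385 to 1.17 in the other 10 libraries. The same 3 astrocyte libraries had the largest shares of neuronal markers, 0.169% in WT 202, 0.172% in aKO 221 and 0.157% in aKO 203, against 0.0388 to 0.0760% in the other 5. They also had the largest shares of astrocyte markers (1.42, 1.11 and 1.24% in that order, the other 5 at 0.287 to 0.853%). Their shares of choroid plexus markers were the smallest (1.22, 1.73 and 2.73%, the other 5 at 5.25 to 17.2%). The part of these marker shares in the Mbp to Mog ratio was not tested. Opalin departed in another library, WT 265 astrocytes, where it stood at 3.06 times Mog by RPKM, against 0.361 to 0.931 times in the other 7 astrocyte libraries. WT 265 also had the lowest share of astrocyte markers in that fraction (0.287%) and the highest share of choroid plexus markers (17.2%, the others 1.22 to 10.6%); the part of these in its Opalin level was not tested.

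Across libraries the 9 genes correlated with each other to differing degrees. On log2 CPM, the 36 pairs had a median Pearson r of 0.802 over the 12 libraries (0.481 to 0.987) and 0.539 over the 8 astrocyte libraries (-0.498 to 0.970). Points share library composition and, in 4 animals, the brain, and the correlations are given as description. Mbp and Mobp were close to each other at r = 0.969 over 12 and 0.945 over 8 libraries. Cnp followed the mean of the other 8 genes most closely (0.969 and 0.982). Opalin followed it least, with r = 0.725 over the 12 libraries and -0.13 over the 8 astrocyte libraries.

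Among the 10 genes most like the mean profile of the 9 over the 12 libraries, of 20637 tested, were Syt11 (r = 0.976), Kirrel3 (0.974), Tmeff2 (0.973) and Tmeff1 (0.969). Ndrg1, Pex5l, Gpr37, Fbxo7 and Spon1 were also among them, with r between 0.969 and 0.963. Within the 8 astrocyte libraries alone the r of these named genes with the profile was between 0.797 and 0.927.

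In the isolated astrocytes, where the question of the series was the effect of deleting Bmal1, none of the 9 myelin genes passed the test, although all 9 had higher estimates in aKO. The median log2 fold change was 0.90, beside 0.02 for the 18950 genes tested, of which 0.0264% (5 genes) were called by edgeR. Mog alone had an unadjusted p below 0.05 (edgeR adjusted p = 0.9997). DESeq2 and limma also called 0 of the 9. Mog was at 336, 325, 427, 413 and 150 CPM in aKO astrocytes 203, 205, 208, 221 and 222 and at 247, 141 and 66.1 CPM in WT astrocytes 201, 202 and 265, so 4 of the 5 aKO values exceeded the highest WT value and aKO 222 lay below it. Its log2 fold change was 1.05 (SE 0.46). The same arrangement, 4 of 5 aKO libraries above all 3 WT libraries, held for Mag, Mal, Cldn11, Cnp and Ermn. The share of all genes in that arrangement was not counted, so the arrangement cannot be read as particular to these genes. Pairs of Mog and these genes correlated at r = 0.544 (Mog with Ermn) to 0.970 (Mag with Cldn11) over the 8 astrocyte libraries, so they are not separate observations. Groups without overlap were found for 0 of the 9 genes (1.41% of genes tested).

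The library aKO 222 was the lowest of the 5 aKO libraries for 8 of the 9 genes, the exception being Opalin. It also had the highest mitochondrial share of the 8 astrocyte libraries (36.5%, the others 11.1 to 32.7%), and the part of this was not tested. Without it the estimates were up to 1.22 for Cnp, and still 0 of 9 genes were called. The edgeR log2 fold changes were 0.96 for Mag (SE 0.48), 0.93 for Mal (SE 0.45), 0.90 for Cldn11 (SE 0.46), 0.99 for Cnp (SE 0.53) and 0.47 for Ermn (SE 0.43). They were near 0 for Mbp (0.21, SE 0.72), Mobp (0.09, SE 0.60) and Opalin (0.24, SE 0.47). Without WT 202 the estimates for Mbp and Mobp were 1.37 and 1.09 and that for Opalin -0.035, and without WT 265 they were -0.23 and -0.31 for Mbp and Mobp and 0.96 for Opalin. Mbp was also below 0 without WT 201 (-0.053) or aKO 221 (-0.17), and Mobp without WT 201 (-0.17), aKO 203 (-0.15) or aKO 221 (-0.15). With library 202 counted as aKO, Mbp had an estimate of 1.55, Mobp of 1.29 and Opalin of -0.17, and 0 of the 9 genes were called.

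Related lists had the same outcome in the isolated astrocytes. Of 40 other mature oligodendrocyte genes 36 had higher estimates in aKO (median 0.55), 0 were called by edgeR, and 6 had an unadjusted p below 0.05, led by Anln (0.96, SE 0.36) and Stmn4 (1.05, SE 0.40). Over all 18950 genes tested, 299 (1.58%) had an unadjusted p below 0.05. Lineage transcription factors had a median of 0.26 (15 genes), lipid synthesis genes 0.22 (21), newly formed oligodendrocyte genes 0.21 (13), node genes 0.18 (15), precursor markers 0.06 (8) and peripheral myelin genes 0.09 (6), with 0 called and 0 at an unadjusted p below 0.05. Among other cell types, all 8 endothelial markers had higher estimates (median 0.42), and 1 of them, Cldn5 (1.14), had an unadjusted edgeR p below 0.05. All 8 ependymal markers (median -0.84) and all 8 choroid plexus markers (-0.25) had lower estimates, as did 8 of 10 astrocyte markers (-0.13). Estimates were higher for 6 of 8 neuronal markers (median 0.13), 5 of 8 microglial markers (0.06) and 3 of 8 leukocyte markers (-0.16). In each of these lists 0 markers were called.

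In the flowthrough, with 2 animals of each genotype, none of the 9 genes differed between aKO and WT by the test (0% of 20637 genes called by edgeR, 817 genes and 0 of the 9 at an unadjusted p below 0.05; DESeq2 and limma also called 0 genes). The estimates ran between -1.48 for Mbp (SE 1.13, edgeR adjusted p = 0.804) and 1.23 for Ermn (SE 0.58, adjusted p = 0.804). Ermn was at 49.4 and 82.0 CPM in aKO flowthrough and 28.3 and 42.2 CPM in WT flowthrough, and was the single member whose genotypes did not overlap, as 32.7% of all genes did not. Mobp had an estimate of -1.25 (SE 1.03) and Mog of -0.35 (SE 0.72). The remaining estimates were 0.01 for Mal, 0.11 for Cnp, 0.49 for Cldn11, 0.58 for Mag and 0.75 for Opalin, with SEs of 0.65 to 0.74. Without the flowthrough of WT 202 the estimates for Mbp, Mobp and Mog were above 0, at 0.83, 1.24 and 0.70. That for Mog was also above 0 without the flowthrough of aKO 205 (0.20). Without the flowthrough of WT 201 those of Mag, Mal, Cldn11 and Cnp were -0.056, -0.72, -0.18 and -0.59. Scaled by library totals alone, the estimates for Mal (-0.34) and Cnp (-0.21) changed sign, while the median of all genes was -0.20 with that scaling and 0.07 with TMM.

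Of the 15 lineage transcription factors 10 had estimates above 0 in the flowthrough and 5 below, and 0 were called. Sox10, Myrf and Olig2, which direct oligodendrocyte identity and myelin gene transcription, had log2 fold changes of 1.68 (SE 0.67), 1.61 (SE 0.65) and 1.63 (SE 0.73), each with an edgeR adjusted p of 0.804. With Ybx3 (1.18) they were the 4 of 15 transcription factors with an unadjusted p below 0.05 (list median 0.42). Over all genes tested in the flowthrough, 3.96% had such a p. The 5 transcription factor estimates below 0 lay between -0.59 and -0.12. Other mature oligodendrocyte genes had a median of 0.13 (7 of 40 at an unadjusted p below 0.05), newly formed oligodendrocyte genes 0.56 (2 of 13), peripheral myelin genes -0.48 (2 of 7) and lipid synthesis genes 0.00 (1 of 21), each with 0 called. Precursor markers (0.29) and node genes (-0.24) had 0 of 8 and 0 of 15 at an unadjusted p below 0.05. The 10 astrocyte markers all had lower estimates in aKO flowthrough (median -1.26, 0 called), at 0.0198 and 0.133% of counts in aKO 205 and 203 and 0.0399 and 0.494% in WT 201 and 202.

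**Figure D5:**
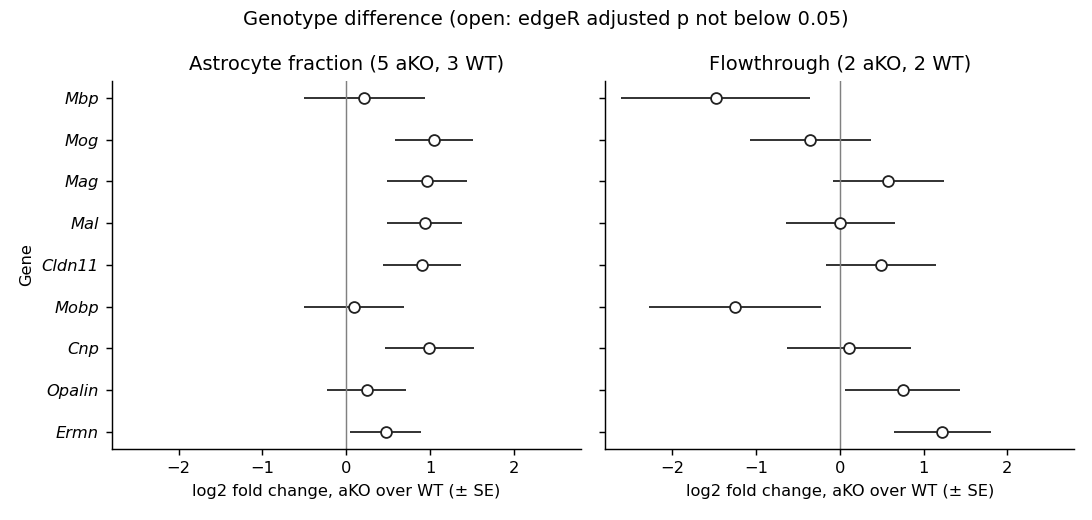
Log2 fold change of each myelin gene, aKO over WT, with its standard error, in the astrocyte fraction (left, 5 aKO and 3 WT) and in the flowthrough (right, 2 aKO and 2 WT), from edgeR; all symbols are open because 0 of 9 genes had an adjusted p below 0.05. Estimates lie between 0.09 and 1.05 on the left and between -1.48 and 1.23 on the right.

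The difference between the 2 genotype effects was tested as an interaction in the 12 libraries. A difference between the genotype effects in astrocytes and in flowthrough was called for 0 of the 9 genes. By edgeR 0% of 20637 genes were called, and 499 genes and 0 members had an unadjusted p below 0.05. DESeq2 and limma also called 0. With 2 flowthrough animals a genotype, this does not show that the effects are equal. The estimates, astrocyte effect minus flowthrough effect, were 1.67 for Mbp (SE 1.39), 1.38 for Mog (SE 0.90), 1.32 for Mobp (SE 1.27) and -0.74 for Ermn (SE 0.71). Those of the other 5 genes lay between -0.46 (Opalin) and 0.93 (Mal). Without the flowthrough of WT 202 the estimate for Mbp was -0.64 and for Mobp -1.17.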

How the data were processed

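RNA of 8 isolated astrocyte fractions and 4 flowthrough fractions was amplified with a SMARTer kit, per the labels' protocols. The tools named in the submitters' processing notes are STAR 2.5.1a, featureCounts 1.4.6-p5, bcl2fastq and Subread, and the build is GRCm38. The annotation, the strandedness and the handling of multi-mapping reads are not given in the sources used here. The deposited files hold, per gene, the read count, and the authors' CPM and RPKM values computed from it, per the file headers. Groups follow the titles. Names are from GENCODE vM21 (40254 of 41388 identifiers), promoter windows from RefSeq. The test on counts was that of edgeR 4.0.16 under R 4.3.3 (quasi-likelihood, robust, TMM; filterByExpr with minimum count 10 and minimum total 15; two-sided; Benjamini-Hochberg over all genes tested, threshold 0.05). The fits were checked on simulated data. CPM and RPKM served as descriptions. The fraction, flowthrough and interaction contrasts used 4 groups and 12 libraries, the astrocyte contrast 8 libraries.

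Alternatives were DESeq2's size factors, library totals, no filter, DESeq2 1.42.0, limma 3.58.1 (voom, weighted samples), library 202 as aKO, leaving out single libraries, and the animal as a block, which the shared number in the titles allows (deviations of the fractions of 1 brain from their group means correlated at 0.0823 to 0.424 over genes). Leaving out animal 202 was added after seeing the data. Where 1 sample was left in a group, it was assumed to vary like the others. The members and lists were chosen with earlier results of these data known. Named genes are the members, Arntl, Atp1b2, up to 4 genes of each list by smallest p and the 10 most like the members; the 4 mature oligodendrocyte genes with estimates below 0 were chosen after their values were seen. Some genes that this rule names are not reported here.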

Additional observations from a re-analysis of the deposited data

Results flagged for a closer look

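Of 19 sets of values of 4 or more libraries that were checked for a library standing apart (Dixon's ratio, critical value 0.71 for 5 libraries), 2 held one, where chance gives about 1 in 20. Opalin was at 268 CPM in the astrocytes of aKO 208, against 137 to 161 CPM in the other 4 aKO astrocyte libraries. Mal took 11.8% of the summed RPKM of the 9 genes in the astrocytes of aKO 205, against 6.06 to 7.54% in the other 4 aKO astrocyte libraries.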

How the results depend on the processing

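All 9 fraction estimates kept their sign under the 21 alternatives, and 0 of 9 genes were called in the genotype contrasts and the interaction under any alternative fitted. Genes called between fractions over all genes were 3517 in the 12 libraries. In the 8 paired libraries they were 5951 with the replicate block (29.5% of genes tested, and 8 of the 9 members). Without the block the same 8 libraries gave 3562 genes (17.6%, and 6 of the 9 members). The block changed no other call of the members. Leaving out 1 library gave 1 to 9 members and 1691 to 4107 genes called between fractions, 0 to 5 genes between astrocyte genotypes and 0 to 1 in flowthrough. Between astrocyte genotypes 5 genes were called, 8 with no filter, 15 by DESeq2, 1 with all 12 libraries in 1 fit and 0 with library 202 as aKO. In flowthrough 45 genes were called with no filter, and for the interaction 40 with no filter and 1 in the 8 paired libraries with or without the replicate block. The cause of these differences was not tested. Estimates that turned sign without 1 library ranged as follows. Between astrocyte genotypes Mbp ran between -0.23 and 1.37, Mobp between -0.31 and 1.09 and Opalin between -0.035 and 0.96 (-0.17 with 202 as aKO). Between flowthrough genotypes Mbp ran between -2.78 and 0.83, Mobp between -2.70 and 1.24, Mog between -1.55 and 0.70, Mag between -0.056 and 1.53, Cldn11 between -0.18 and 1.56, Mal between -0.72 and 1.27 (-0.34 by library totals, -0.071 with no filter) and Cnp between -0.59 and 1.24 (-0.21 by library totals). In the interaction Mbp ran between -0.64 and 2.98, Mobp between -1.17 and 2.78, Mag between -0.55 and 1.05, Mal between -0.34 and 1.66, Cldn11 between -0.65 and 1.10, Cnp between -0.26 and 1.58 and Opalin between -1.53 and 0.26. Without animal 202 in both fractions the flowthrough estimates were 0.83 for Mbp, 0.70 for Mog and 1.24 for Mobp, the interaction -0.78 for Mag, -0.52 for Mal, -0.87 for Cldn11, -0.14 for Mobp and -0.21 for Cnp, and the astrocyte genotype -0.035 for Opalin. With 202 as aKO the interaction for Mag was -0.0058. By CPM in place of RPKM, the median shares in the astrocyte fraction were 58.0% for Mbp, 3.88% for Mog, 4.29% for Mal and 4.07% for Cldn11. The flowthrough contrast rests on 2 animals a group, and its SEs of 0.58 to 1.13 on the log2 scale limit what it can show.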
